A study of Ursus arctos with 12 samples.

Results

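The genes described here are the lysyl oxidases LOX, LOXL1, LOXL2 and LOXL3 and the elastic fibre proteins ELN, FBN1, FBLN1, FBLN5, EMILIN1 and EFEMP2. They were taken by gene symbol, and all 10 were found among the 30249 genes of the count table and passed the filter that left 17290 genes for testing. The samples were biopsies of the vastus lateralis, a thigh muscle, from 6 free-ranging brown bears (Ursus arctos) of 2 to 3 years. Each bear was captured in hibernation in February, called winter here, and again in the active period in June of the same year, called summer, so that 6 winter and 6 summer libraries of poly-A RNA were compared. Winter differs from summer at once in activity, feeding, body temperature and date, which cannot be told apart.

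Lysyl oxidases are secreted enzymes that carry copper and oxidize lysine residues of collagen and elastin, the step that starts the covalent cross-links between these chains. An elastic fibre has a core of cross-linked elastin laid on a scaffold of microfibrils, which are built mainly of fibrillin. Fibulins and EMILIN1 sit at the border of core and scaffold and help place elastin and the lysyl oxidases on the scaffold. In skeletal muscle these proteins lie in the connective tissue around fibres and bundles, in vessel walls and towards the tendon, and are made largely by fibroblasts and by cells of the vessel wall rather than by the muscle fibre.

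Depth ran from 16742406 to 32140160 reads per library. Skeletal muscle fibre markers were abundant throughout, with a summed level of 90410 to 177100 CPM (counts per 1000000 reads, with library sizes scaled by TMM) in summer and 92580 to 135500 CPM in winter. Markers of other tissues differed between biopsies. The 5 tendon cell markers SCX, TNMD, MKX, KERA and FMOD summed to 521 CPM in the summer library of bear 1511, to 353 CPM in that of bear 1512 and to 271 CPM in that of bear 1317, against 32.05 to 67.8 CPM in the other summer libraries. In winter their sum was 245 CPM in bear 1511 and 3.28 to 29.7 CPM in the other bears. FMOD alone made up 410, 252 and 173 CPM of the summer sums in bears 1511, 1512 and 1317. It made up 207 CPM of the winter sum in bear 1511, so these high sums rest mostly on FMOD. In the other summer libraries FMOD was at 12.6 to 38.7 CPM. The 5 adipocyte markers summed to 1376 CPM in the summer library of bear 1316, against 297 to 515 CPM in the other summer libraries, so that the 3 bears with few tendon markers are not free of other tissue.

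In winter most of these genes took a smaller share of the mRNA reads of the muscle. At an adjusted p below 0.05 in edgeR, 8 of the 10 were lower in winter, where 19.9% of all tested genes were lower, and 0 were higher, where 19.6% of all were. At the stricter limits for a differentially expressed gene (DEG), 0.01 for the adjusted p and 0.77 for the winter/summer ratio, 7 of the 10 were lower, against 12% of all genes. All 4 lysyl oxidases were among these 7, with log2 fold changes from −3.00 to −2.08. The 6 elastic fibre proteins moved less in this fit, from −1.59 to −0.89, and FBN1 and FBLN1 did not pass the test. The median log2 fold change was −2.42 over the lysyl oxidases, −1.25 over the elastic fibre proteins and −0.0021 over all genes tested. In 7 of the 10 genes winter was below summer in 6 of 6 bears, as in 19.0% of all genes, and in 4 of them each winter library was below each summer library, as in 8.21% of all genes. With the bear as a replicate block in the fit, 10 of 10 genes were called at both limits. In that fit 7055 of all genes were called in either direction at an adjusted p below 0.05, and the share past the DEG limits was not computed. The families then overlapped, with log2 fold changes of −1.73 for LOX and −1.93 for FBN1. In the 3 bears with few tendon markers in summer, 1305, 1316 and 1509, a fit chosen after the data were seen, 8 of 10 were lower and 3 passed the DEG limits. Of all genes, 3026 were called in either direction at an adjusted p below 0.05 in these bears. There LOX, at −0.86, moved less than ELN, at −2.09.

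**Figure D1:**
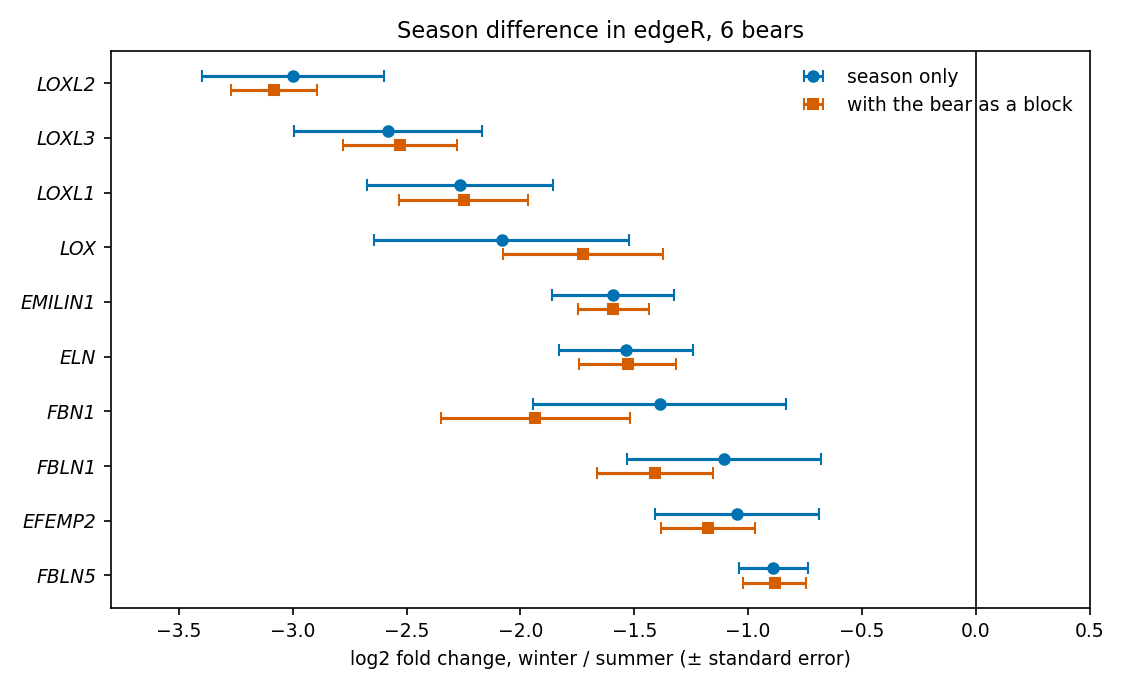
Log2 fold change of each gene, winter over summer, with its standard error (bars) in edgeR over 6 bears, without (circles) and with (squares) the bear as a block. All values lie below 0, from −3.00 for LOXL2 to −0.89 for FBLN5 without the block, and FBN1 moves most with it, to −1.93.

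LOXL2, which oxidizes lysines of collagen IV and other matrix proteins, changed most among the 10. Its level was 18.2 CPM in the lowest summer library, 27.8 CPM at the median and 55.5 CPM in the highest, whereas winter libraries ran from 1.596 CPM over a median of 3.30 CPM to 7.06 CPM. The seasons did not overlap, and the winter level was 12.5% of the summer level in the fit (−3.00 ± 0.40 on the log2 scale, fold change ± standard error as below, adjusted p = 9.03e-05). The 2 highest winter libraries were those of bears 1509, at 7.06 CPM, and 1511, at 6.80 CPM. Its fall was among the 3 largest of the 10 genes in each bear, and the largest in 3 of 6.

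LOXL3, a lysyl oxidase with the same kind of scavenger receptor domains as LOXL2, lay between 5.63 and 24.7 CPM in summer with a median of 9.38 CPM. In winter it lay between 1.11 and 4.15 CPM with a median of 1.62 CPM. Again no winter library reached a summer library, and the gene fell to 16.71% of its summer level (−2.58 ± 0.41 on the log2 scale, adjusted p = 0.00031).

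LOXL1, the family member most closely tied to elastic fibre upkeep, was counted with only 12 to 38 reads in winter libraries and 39 to 192 in summer libraries. Summer levels ran from 1.53 CPM over a median of 5.61 CPM to 6.995 CPM, and winter levels from 0.504 over 0.977 to 2.29 CPM. The seasons overlapped through the summer library of bear 1512, which at 1.53 CPM lay below the winter library of bear 1511. The log2 fold change was −2.27 ± 0.41 (adjusted p = 0.000748), and winter was lower in 6 of 6 bears.

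LOX, the founding enzyme of the family, varied most between animals in summer. Its summer libraries held 9.59, 10.9, 25.9, 37.1, 53.0 and 121 CPM in bears 1316, 1509, 1305, 1317, 1512 and 1511, a 12.6-fold range, while winter libraries held 4.79 to 20.2 CPM with a median of 8.67 CPM. The seasons overlapped, and winter was lower in 5 of 6 bears. In bear 1509 winter was higher by 0.18 on the log2 scale. The fitted log2 fold change was −2.08 ± 0.56 (adjusted p = 0.00946). It was smaller with the bear as a replicate block in edgeR (−1.73 ± 0.35, adjusted p = 0.00301). The same held in limma voom (−1.75, adjusted p = 0.02615) and without bear 1511 (−1.74, adjusted p = 0.009585). The 3 bears with the highest summer level were those with over 200 CPM of tendon markers in summer. Without these 3 bears the log2 fold change of LOX was −0.86 with an adjusted p of 0.217, so that the call was lost, while LOXL1 (−2.91, adjusted p = 0.0056), LOXL2 (−2.74, adjusted p = 0.0131) and LOXL3 (−2.0, adjusted p = 0.0102) stayed lower. Leaving out the bears with the highest summer LOX makes its fall smaller whatever its source, and the fit rests on 3 bears. It is thus no test of tendon tissue, whose part in the LOX result was not tested.

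**Figure D2:**
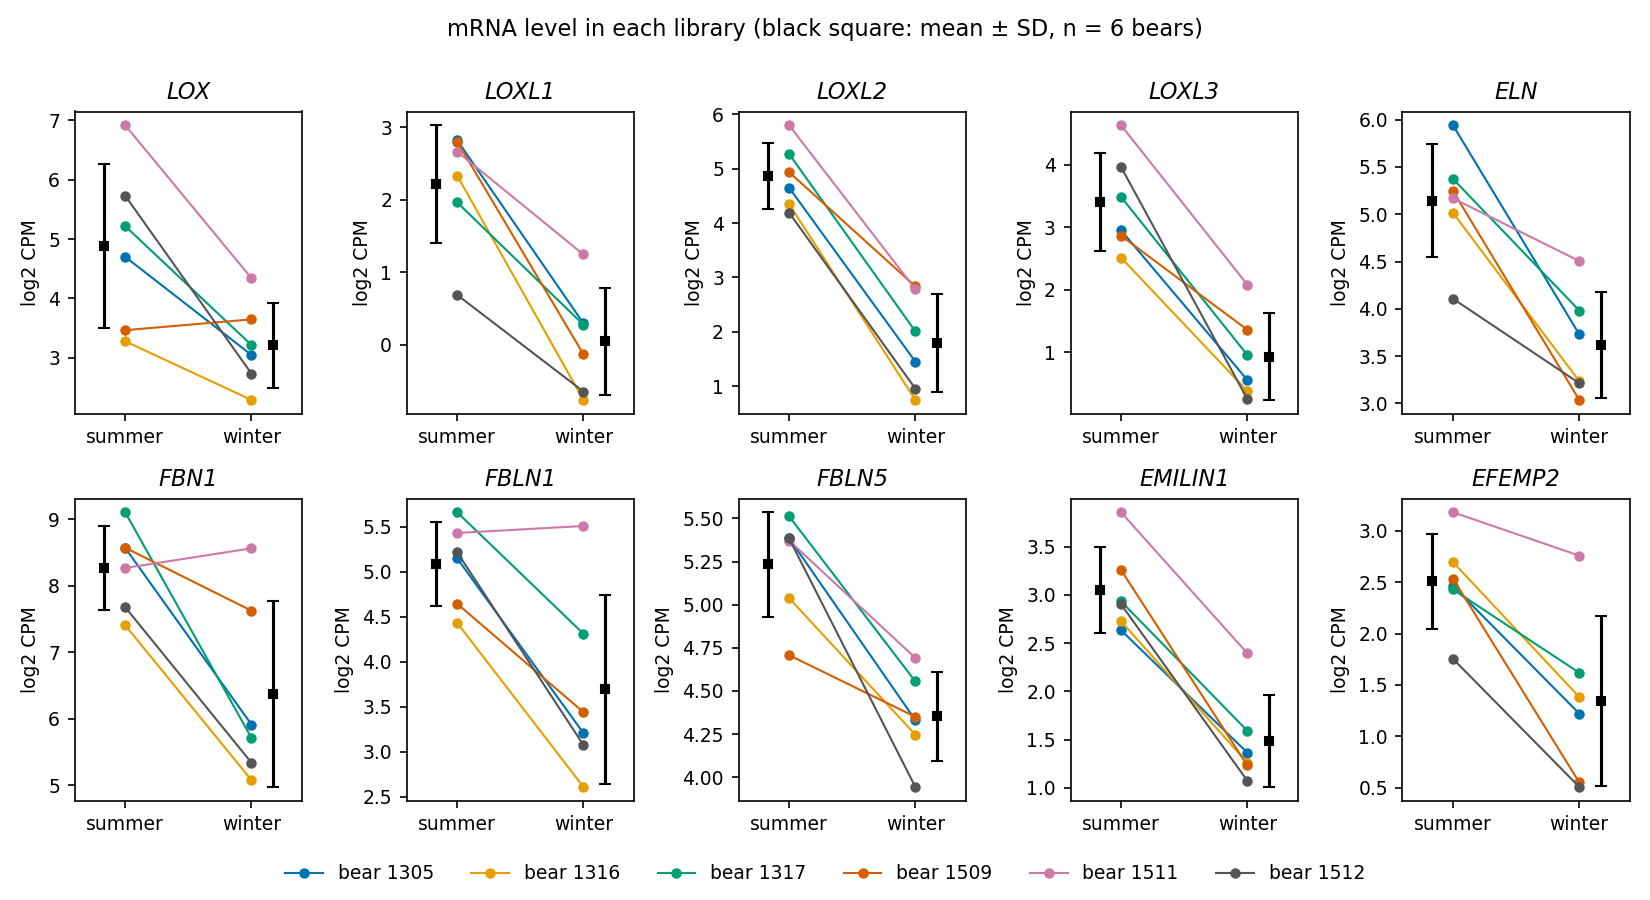
Level of each gene in each library as log2 CPM (each panel has its own vertical axis), with a line joining the summer and winter library of each bear and black squares for the mean ± SD over 6 bears. Lines fall in all 6 bears for LOXL1, LOXL2, LOXL3, ELN, FBLN5, EMILIN1 and EFEMP2, whereas 1 line rises for LOX (bear 1509) and 1 each for FBN1 and FBLN1 (bear 1511).

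ELN encodes tropoelastin, the soluble unit of the elastin core. Summer libraries held from 17.1 to 61.4 CPM with a median of 36.9 CPM, and winter libraries from 8.11 to 22.6 CPM with a median of 11.3 CPM. A single summer library, that of bear 1512, lay within the winter range. The gene fell to 34.5% of its summer level (−1.54 ± 0.29 on the log2 scale, adjusted p = 0.0011), by 2.21 log2 units in bear 1305 and by 0.66 in bear 1511. Over all alternatives its adjusted p was at most 0.00698.

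EMILIN1, a glycoprotein at the border of elastin and microfibrils, had a similar fall with a tighter spread. Its level was 6.12 to 14.4 CPM in summer (median 7.48 CPM) and 2.02 to 5.17 CPM in winter (median 2.4 CPM). The seasons did not overlap, single bears lay between −2.03 and −1.27 on the log2 scale, and the log2 fold change was −1.59 ± 0.27 (adjusted p = 0.000437).

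FBLN5, or fibulin 5, binds both elastin and LOXL1 and is needed for elastic fibre assembly. It changed least among the 10 and was the steadiest within a season, with a 1.75-fold range among summer libraries and a 1.68-fold range among winter libraries. Summer levels were 26.0 to 45.6 CPM (median 41.5 CPM) and winter levels 15.3 to 25.8 CPM (median 20.2 CPM), without overlap. The log2 fold change was −0.89 ± 0.15 (adjusted p = 0.000505), a winter level of 54.0% of summer.

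EFEMP2, or fibulin 4, brings LOX to elastin. It was at 3.29 to 8.98 CPM in summer with a median of 5.57 CPM and at 1.34 to 6.68 CPM in winter with a median of 2.38 CPM, and the seasons overlapped through the winter library of bear 1511. Winter was lower in 6 of 6 bears (−1.05 ± 0.36 on the log2 scale, adjusted p = 0.0323), but the call was close to the threshold. It was lost without bear 1305 (adjusted p = 0.0864), 1316 (0.091), 1317 (0.0691) or 1509 (0.0806). The gene passed the DEG limits when each bear was a replicate block (0.00136 in edgeR), when bear 1511 was left out (0.00254) and in limma voom (0.00764).

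FBN1 and FBLN1 had lower medians in winter but were not called. FBN1, fibrillin 1, is the main building block of microfibrils. Summer libraries held 170 to 551 CPM with a median of 344 CPM. Winter libraries held 378 CPM in bear 1511 and 197 CPM in bear 1509, against 33.7 to 60.3 CPM in the other bears. The winter range was thus 11.2-fold and reached into the summer range through those 2 bears. The log2 fold change was −1.39 ± 0.56 (adjusted p = 0.0606), and winter was lower in 5 of 6 bears, with bear 1511 higher by 0.30. With the bear as a replicate block the log2 fold change was −1.93 and the adjusted p 0.00391, and without bear 1511 they were −2.13 and 0.00573. In the 3 bears with few tendon markers FBN1 was not called (−1.66, adjusted p = 0.104).

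FBLN1, fibulin 1, which is found in elastic fibres and in basement membranes, was likewise highest in winter in bear 1511. Its level was 21.5 to 50.6 CPM in summer (median 36.3 CPM), and in winter it was 45.5 CPM in bear 1511, 19.8 CPM in bear 1317 and 6.01 to 10.8 CPM in the other bears. The log2 fold change was −1.11 ± 0.43 (adjusted p = 0.0525), with 5 of 6 bears lower. The adjusted p was 0.00149 with the replicate block (log2 fold change −1.41), 0.00184 without bear 1511 (−1.66) and 0.0105 in the 3 bears with few tendon markers (−1.65). The winter library of bear 1511 was also the highest of its season for LOX, LOXL1, LOXL3, ELN, FBLN5, EMILIN1 and EFEMP2 and held the most tendon markers of the winter libraries. The part of those markers in the FBN1 and FBLN1 values was not tested.

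Counted by bear, 57 of the 60 differences between the winter and summer library of an animal were below 0. Bears 1305, 1316, 1317 and 1512 were lower in winter for 10 of 10 genes, bear 1509 for 9 and bear 1511 for 8. The median over the genes was −2.08 on the log2 scale in bear 1305, −1.80 in bear 1316, −1.54 in bear 1317, −1.74 in bear 1509, −1.05 in bear 1511 and −1.99 in bear 1512. The gene with the largest fall was LOXL2 in bears 1305, 1316 and 1511, FBN1 in bear 1317 (−3.39), LOXL1 in bear 1509 (−2.93) and LOXL3 in bear 1512 (−3.71). The differences between bears were thus not the same for each gene. Bear 1512 had the largest fall of LOX, LOXL3, FBLN1 and FBLN5 and the smallest of LOXL1.

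**Figure D3:**
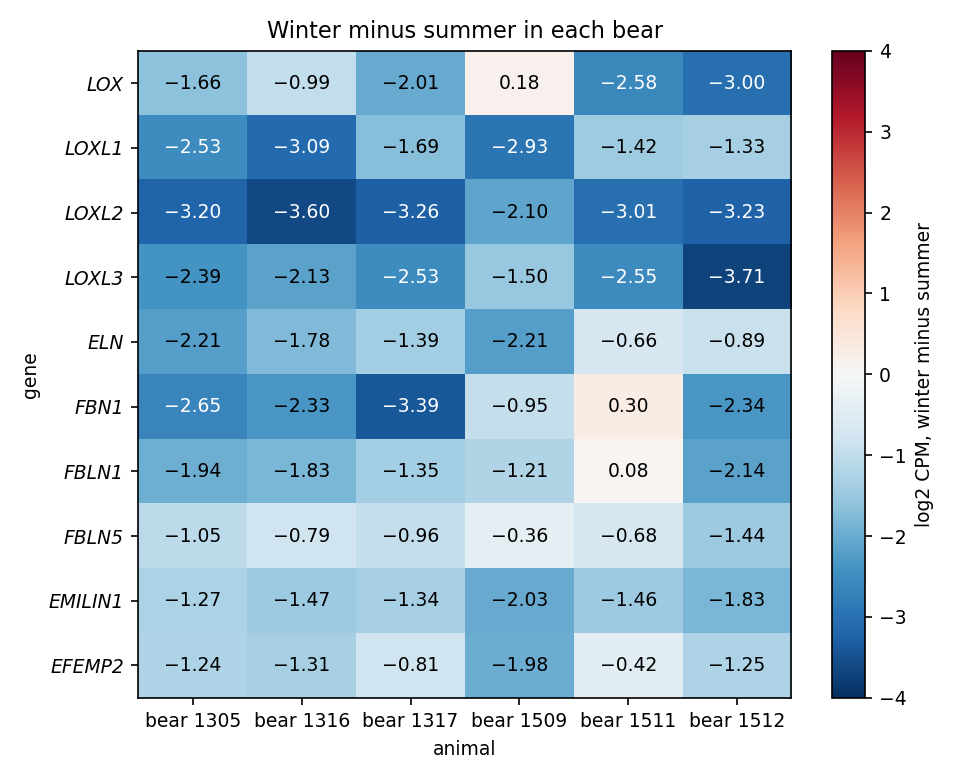
Winter minus summer log2 CPM for each gene (rows) and bear (columns), with blue below and red above 0. Of the 60 cells 57 are below 0, and those above 0 are LOX in bear 1509 (0.18) and FBN1 and FBLN1 in bear 1511 (0.30 and 0.08).

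Libraries also varied within a season. Deviations of log2 CPM from the season means were correlated over the 12 libraries, which share animals, so the coefficients are a description. All 45 pairs were above 0, with a median r of 0.58, which was 0.61 within the lysyl oxidases, 0.51 within the elastic fibre proteins and 0.59 between them. LOX went with LOXL3 (r = 0.93) and with FBLN5 (0.71), but not with LOXL1 (0.08) or ELN (0.07). LOXL1 went with ELN (0.87) and EFEMP2 (0.75). LOXL2 lay closest to FBN1 (0.83), and EMILIN1 to EFEMP2 (0.80).

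Among 10344 named genes whose mean log2 CPM was 1 or more, the 5 whose deviations were most like those of LOX were ABI3BP (r = 0.94), LOXL3 (0.93), ADGRG2 (0.93), SEMA3D (0.93) and COL12A1 (0.92). All of these were lower in winter, with log2 fold changes from −2.58 for LOXL3 to −1.87 for ADGRG2 and adjusted p values of at most 0.0291. The 5 most like ELN were PPL (r = 0.92), TNNI1 (0.91), GNL3 (0.91), TNXB (0.89) and FBLN2 (0.88). Of these, GNL3 was higher in winter (log2 fold change 0.53, adjusted p = 0.000315), FBLN2 lower (−1.23, adjusted p = 0.0157, but 0.0576 to 0.0625 without bear 1305, 1316 or 1317), and PPL (−0.10), TNNI1 (0.08) and TNXB (−0.79) were not called.

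**Figure D4:**
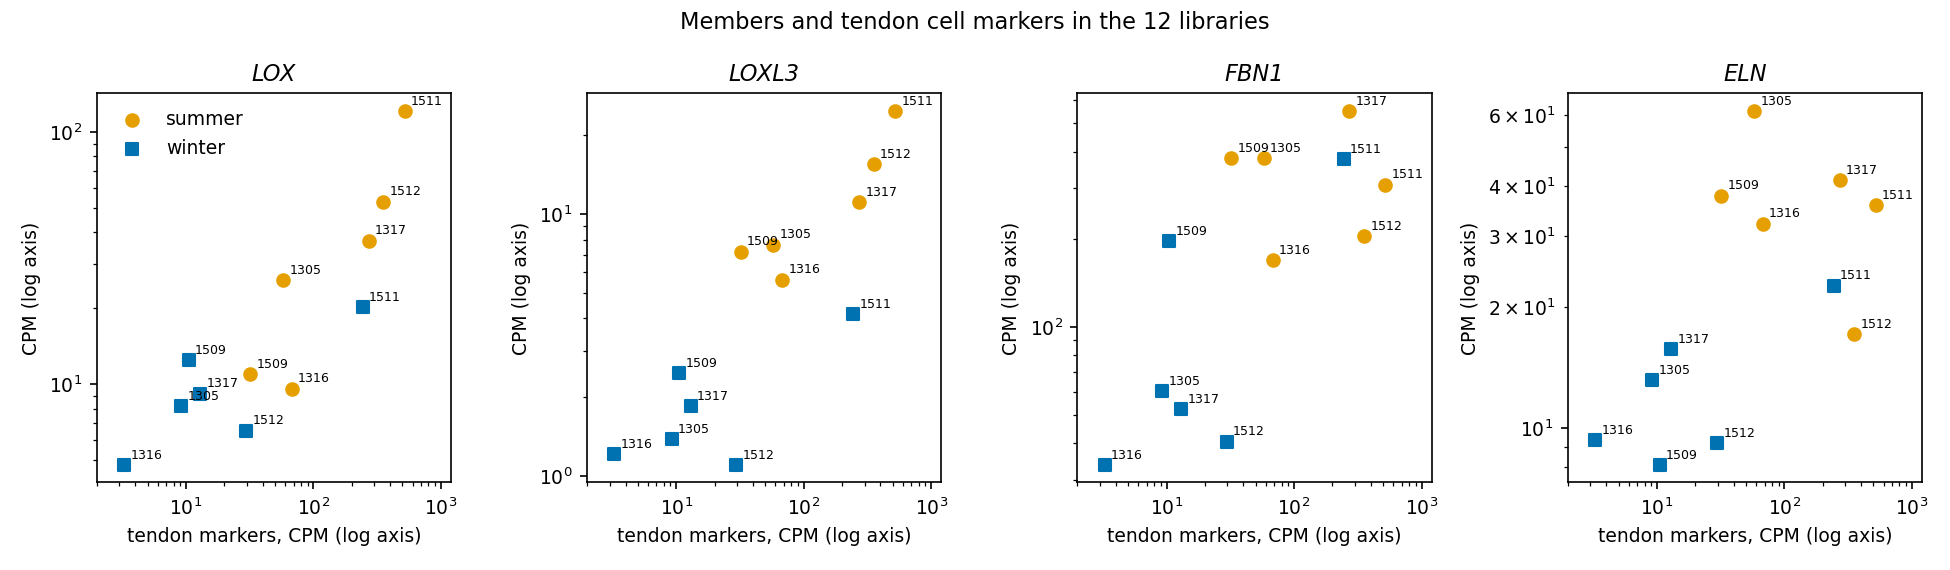
Level of LOX, LOXL3, FBN1 and ELN (CPM, log axis) against the summed level of 5 tendon cell markers (CPM, log axis) in the 12 libraries, circles for summer and squares for winter, each labelled with its bear. The summer libraries of bears 1511, 1512 and 1317 are the highest both for LOX (121, 53.0 and 37.1 CPM) and for tendon markers, while the highest ELN level, 61.4 CPM, is in bear 1305 with 57.8 CPM of tendon markers.

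Of the genes that mature or supply the lysyl oxidases, 2 were lower by over 2 log2 units. LOX is secreted as a proenzyme that the protease BMP1 cleaves, and PCOLCE enhances the same protease on procollagen. PCOLCE had 783 to 2375 reads in summer and 119 to 366 in winter libraries, a log2 fold change of −2.64 ± 0.37 (adjusted p = 0.000119), and BMP1 had 365 to 698 and 60 to 125 reads, a log2 fold change of −2.38 ± 0.28 (adjusted p = 3.92e-05). Neither overlapped between seasons. LOXL4, the fifth lysyl oxidase, was lower at −1.68 ± 0.55 (adjusted p = 0.026), but not without bear 1317 (0.0659), without bear 1512 (0.0663) or in the 3 bears with few tendon markers (0.163). The copper importer SLC31A1 was lower by a small step (−0.42, adjusted p = 0.0232), but not without bear 1317 (0.0693) or 1511 (0.0894), or in the 3 bears with few tendon markers (0.475). ATP7A, which pumps copper into the secretory route (−0.25, adjusted p = 0.272), the copper chaperone ATOX1 (−0.38, adjusted p = 0.102, but 0.0288 without bear 1317) and the protease TLL2 (0.62, adjusted p = 0.237) were not called. Of the 7 genes tested in this list, 4 were lower and 0 higher, against 19.9% and 19.6% of all genes. The median log2 fold change was −0.42.

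The other microfibril and elastic fibre genes gave 12 lower, 0 higher and 10 not called of 22 tested, with a median log2 fold change of −0.83. The largest falls were those of the fibulin FBLN7 (−3.16 ± 0.64, adjusted p = 0.00165), of MFAP2, a small protein bound to fibrillin (−2.42 ± 0.53, adjusted p = 0.00263), and of ADAMTS17 (−2.28 ± 0.25, adjusted p = 2.66e-05), a protease of the family that acts on microfibrils. The second fibrillin, FBN2, was not called (−0.45, adjusted p = 0.0616), except without bear 1305 (0.0301). The other uncalled genes ran from EMILIN3 at −0.92 over LTBP3 (−0.61), MFAP4 (−0.55), EFEMP1 (−0.51), LTBP4 (−0.49), FBN3 (0.04), LTBP2 (0.11) and MMRN1 (0.13) to ADAMTS10 at 0.25. With the bear as a block EMILIN3 (adjusted p = 0.0187) and LTBP3 (0.00751) were called lower in edgeR, and LTBP4 (0.0133) and EFEMP1 (0.0145) also in DESeq2. LTBP4 (0.0405) and MFAP4 (0.0419) were called lower in the 3 bears with few tendon markers. Without bear 1511 LTBP4 (0.0388) and EFEMP1 (0.04265) were. EMILIN3 was also called with library totals, in limma voom and without bear 1317. Of the 12 lower, MFAP5, FBLN2, HMCN1, EMILIN2, MMRN2 and THSD4 lost the call in 1 or more alternatives. Among genes of elastin breakdown and of the elastin receptor, 3 of 8 tested were lower and 0 higher (median −0.07). These were the gelatinase MMP2 (−1.62, adjusted p = 0.000954), GLB1, whose spliced form binds elastin (−0.63, adjusted p = 0.002, but 0.0863 in the 3 bears with few tendon markers), and its partner CTSA (−0.34, adjusted p = 0.0432). CTSA was not called without bear 1305, 1316, 1317, 1509 or 1512 or in the 3 bears with few tendon markers (adjusted p from 0.0517 to 0.17). The elastases MMP12 (0.04) and CTSS (0.24) were not called, and NEU1 (0.29, adjusted p = 0.0894) was called, as higher, only without bear 1509 (0.0419). All 5 fibrillar collagen genes were lower, from −4.59 for COL1A1, −4.17 for COL3A1 and −3.74 for COL1A2 to −1.87 for COL5A2. In the 3 bears with few tendon markers COL3A1 was not called (−3.59, adjusted p = 0.0626). Over the 4 lists, 24 of 42 tested genes were lower at an adjusted p below 0.05 in edgeR and 0 higher, against 19.9% and 19.6% of all genes. By unadjusted p at the same threshold 27 were lower and 1 higher, NEU1, and DESeq2 gave 24 and 0. With the bear as a block 26 were lower in edgeR and 28 in DESeq2, and 0 higher in both.

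Within a library, the ratio of the reads of 2 genes does not depend on scaling. Per 1000 reads of COL1A1 there were 10.1 to 81.5 reads of LOX in summer and 96.0 to 467 in winter, higher in 6 of 6 bears, with a mean change of 3.46 ± 1.42 on the log2 scale (SD, n = 6 bears). LOXL2 per 1000 COL1A1 reads went from 13.5 to 28.2 in summer to 45.4 to 152 in winter, also higher in 6 of 6 bears (2.04 ± 0.93). The ratio of LOX to ELN moved in no common direction, with 3 bears higher and 3 lower (−0.15 ± 1.74). LOXL1 per ELN read was lower in 6 of 6 bears (−0.74 ± 0.42), as was LOXL2 per LOX read (−1.42 ± 0.96). These ratios were chosen after the levels were seen. An exact two-sided permutation test that flips the sign of each bear gave p = 0.0313, the smallest that 6 bears allow, for 5 of the 10 ratios computed. The adjusted p of these was 0.0625 over the 10, so that no ratio passed the correction. At this smallest p a ratio could pass only if more ratios had moved alike in all bears, so the correction cannot decide on single ratios.

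**Figure D5:**
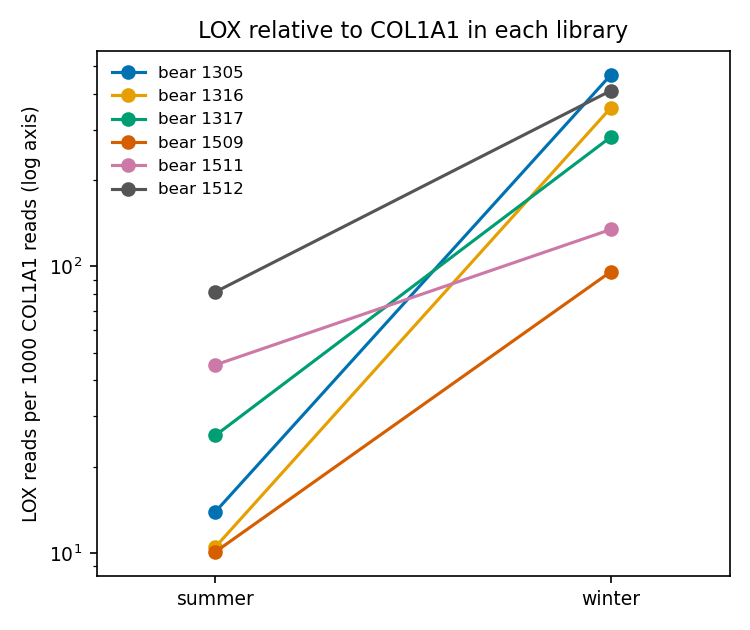
LOX reads per 1000 COL1A1 reads in the summer and winter library of each bear, on a log axis, with a line for each bear. All 6 lines rise, from 10.1 to 81.5 reads in summer to 96.0 to 467 in winter.

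Markers of the cells that make these proteins moved in the same direction in part. In a bulk biopsy, fewer cells of a type and less RNA per cell cannot be told apart. Of all genes tested, 19.9% were called lower and 19.6% higher. Of 10 tested fibroblast markers outside the matrix, 6 were lower and 1 higher, from PI16 at −1.72 to PRRX1 at 0.85 (adjusted p = 5.5e-05), with a median log2 fold change of −1.07. Their summed level was 519 to 679 CPM in summer and 448 to 617 CPM in winter, of which PRRX1 alone made up 166 to 210 and 301 to 425 CPM. PDGFRA, which defines fibroadipogenic cells, was not called (−0.49, adjusted p = 0.0772), and TCF21 did not pass the filter. Smooth muscle markers were lower in 3 of 7 and higher in 0 (197 to 282 CPM in summer, 131 to 216 CPM in winter), from LMOD1 at −1.58 to ACTA2 at −0.34. Pericyte markers were lower in 3 of 6 and higher in 0 (564 to 763 and 366 to 506 CPM), from RGS5 at −1.37 to ABCC9 at 0.03. Endothelial markers were lower in 6 of 8 and higher in 1 (660 to 991 and 461 to 529 CPM), from VWF at −1.28 to ERG at 0.46. Of the 5 tendon markers KERA was lower (−3.00, adjusted p = 0.000322) and the others were not called, the highest being MKX at −1.55. The sum of the 5 was lower in winter in 6 of 6 bears, with a median of 169.5 CPM in summer and 11.77 CPM in winter. FMOD alone had a median of 105.9 CPM in summer and 6.70 CPM in winter. By gene, KERA, TNMD and FMOD were lower in 6 of 6 bears, MKX in 5 and SCX in 4. The parts of these cells in the results above were not tested.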

How the data were processed

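Muscle mRNA of 6 bears in both seasons was measured, 12 libraries in all. According to the labels and the methods, the authors made stranded libraries and read 50 bases from one end. They aligned with TopHat 2.1.1 to the assembly ASM358476v1, discarding alignments with more than 3 mismatches, and counted reads per gene on the proper strand with featureCounts 1.6.2. The deposited values are raw counts, neither filtered nor normalized. The lane of each library is not given in the sources used here, so lanes were not tested.

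Only genes with a total of 30 reads or more were kept, and counts were scaled by TMM. Winter was compared with summer over all genes with glmQLFit and glmQLFTest of edgeR 4.0.16 (R 4.3.3) with season as the only term and Benjamini-Hochberg adjustment. Standard errors are the log2 fold change over the square root of F. Log2 CPM carries a prior count of 2. CPM was not divided by gene length, so levels are not compared between genes. The bear as a replicate block, DESeq2 1.42.0, limma 3.58.1 (voom), RLE, library totals, other filters and leaving out each bear were alternatives. Libraries of a bear are from the same animal by the methods, and their deviations correlated at 0.0903 to 0.344, with a median of 0.2365. Between bears the values were −0.214 to 0.142 with a median of −0.0634, so the ranges overlapped. The main fit takes the 12 libraries as independent, so its p values leave out the pairing by bear. They mix the spread between these animals with that within them. The fits were tested on simulated data, in which libraries were drawn independently, without an effect of the bear, and far fewer genes changed than were called here. That test thus cannot tell how the fits behave on paired libraries.

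The 10 genes, the other lists and the tests were chosen with earlier results of these data known. Named were the 10 genes, the largest rise and 3 largest falls among called genes of each related list, its uncalled gene of lowest p, the extremes of each marker list, and the 5 genes most like LOX and ELN. The other uncalled genes given with a value, SLC31A1, COL5A2, PDGFRA and TCF21, and the ratios were chosen after their values were seen. Columns of per-sample values without a sample numbered 0. The result of a further marker list is not reported here.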

Additional observations from a re-analysis of the deposited data

How the results depend on the processing

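LOXL1, LOXL2, LOXL3, ELN, FBLN5 and EMILIN1 were called lower in all 15 alternatives, LOX in 14, EFEMP2 in 11, FBLN1 in 8 and FBN1 in 4, and no gene changed direction in any. The number called lower of the 10 ran from 7 to 10 and the number past the DEG limits from 3 to 10. The latter was 10 when each bear was a replicate block, against 7 without it. That block changed the calls of FBN1 and FBLN1 at an adjusted p of 0.05 and of EFEMP2 at the DEG limits, and no other call of the 10. FBLN1 was also called with library totals (adjusted p = 0.0398), without the filter (0.0489), with filterByExpr (0.0496) and in limma voom (0.00541), and FBN1 in limma voom (0.0101). LOX left the DEG limits in limma voom, without bear 1305, 1316, 1317 or 1512, and with 3 bears alone.

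With bears 1305, 1316 and 1509 alone, 3 of the 10 passed the DEG limits and 3026 of all genes were called at an adjusted p below 0.05, against 6831 in all bears, a fit of 6 of the 12 libraries. The number of related genes higher in winter was 0 to 1 when each bear was left out, the 1 being NEU1 without bear 1509. LOXL1, LOXL4, THSD4, ADAMTSL2 and ADAMTS17 had under 40 reads in each winter library, which limits their precision.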

Other observations

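Macrophage markers were lower in 3 of 6 and higher in 0, from CD68 at −0.84 to CD163 at −0.45 on the log2 scale, with a summed level of 57.1 to 110 CPM in summer and 40.9 to 73.0 CPM in winter. Adipocyte markers were lower in 1 of 5 and higher in 1, from CIDEC at −2.43 to LEP at 2.79, the latter counted at a median of 0.5 reads in summer and 5.5 in winter. Skeletal muscle fibre markers were lower in 2 of 7 and higher in 0, from ACTA1 at −0.90 to MYLPF at 0.27. Of all genes tested, 19.9% were called lower and 19.6% higher, so the adipocyte counts are near the share of all genes.

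No library stood apart from the other 5 of its season for any of the 10 genes by Dixon's test on log2 CPM, in 20 groups tested. Where 2 libraries are high together this test can miss both, as for FBN1 in winter in bears 1511 and 1509 (378 and 197 CPM). The widest summer range was that of LOX, 12.6-fold, and the widest winter range that of FBN1, 11.2-fold.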
